A study of Mus musculus with 4 samples.

Results

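Fc receptors let myeloid cells bind antibody. The 7 genes described here encode chains of these receptors in mouse bone marrow progenitor cells: Fcer1a, Ms4a2 and Fcer1g of the IgE receptor, and Fcgr3, Fcgr2b, Fcgr1 and Fcgr4 of the IgG receptors. They were taken by name and not by their measured values, and all 7 were found among the 32265 gene rows of the data. The study set progenitor cells from mice labelled CML, for chronic myeloid leukaemia, beside those of wild-type (WT) mice, with and without imatinib, an inhibitor of the BCR-ABL kinase. Cells were sorted from C57BL/6 bone marrow as Lin-Sca1+cKit+ (LSK), a gate that holds stem and early progenitor cells, and their polyA RNA was read with inDrop, a droplet method for single cells. There were 4 libraries, 1 per group: CML mice given imatinib, WT mice given imatinib, untreated CML mice and untreated WT mice. Treated mice received 400 mg/kg of imatinib by gavage every other day. The course was 30 days by the protocol text and 4 weeks by the sample labels. The allele or transgene behind the CML label, the age and number of mice and any pooling are not given in the sources used here. With 1 library per group there was no replicate check of any difference below, and no test across samples was possible. Intervals in the text are exact 95% intervals that cover counting error only.

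In the high-affinity IgE receptor, the alpha chain (Fcer1a) binds IgE, while the beta chain (Ms4a2) and the gamma chain (Fcer1g) carry the ITAM motifs that start signalling. Mast cells and basophils are the cells best known for the full receptor, and its crosslinking by antigen releases their granules. The gamma chain is shared: the activating IgG receptors Fcgr3, Fcgr1 and Fcgr4 also need it to reach the surface and to signal, so Fcer1g is used widely across myeloid cells. Fcgr2b is the inhibitory IgG receptor, with an ITIM motif in its tail that recruits phosphatases. Fcgr1 has high affinity for IgG and is typical of monocytes and macrophages, and Fcgr4 of mature neutrophils and monocytes.

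In the GRCm38 annotation, 5 of the 7 genes lie within 2.27 Mb of chromosome 1. Fcgr2b (chr1:170958617-170976547), Fcgr3 (chr1:171051174-171064935), Fcer1g (chr1:171229572-171234365) and Fcer1a (chr1:173221284-173227214) are on the minus strand, and Fcgr4 (chr1:171018920-171029761) is on the plus strand. Ms4a2 (chr19:11615523-11623719) and Fcgr1 (chr3:96282909-96293969) are minus-strand genes elsewhere. The promoters of the 2 genes with the narrowest pattern, Fcer1a and Ms4a2, are shown beside that of Fcgr3, whose level differed most with imatinib in CML. Each run has 250 bases before and 50 after a RefSeq start site in GRCm38.p6, 5′ to 3′ on the gene's strand (chr1:173227180-173227479, chr19:11623670-11623969 and chr1:171059354-171059653). Capitals mark AGATAA, a motif of GATA factors whose reverse complement is TTATCT. They also mark GAGGAA, the core of a PU.1 motif whose reverse complement is TTCCTC.
Fcer1a promoter: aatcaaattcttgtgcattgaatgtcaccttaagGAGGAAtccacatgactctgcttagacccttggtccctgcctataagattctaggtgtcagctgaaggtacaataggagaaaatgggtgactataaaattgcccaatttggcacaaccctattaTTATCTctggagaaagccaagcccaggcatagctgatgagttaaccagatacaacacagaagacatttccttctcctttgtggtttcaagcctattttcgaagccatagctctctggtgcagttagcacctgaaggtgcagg
Ms4a2 promoter: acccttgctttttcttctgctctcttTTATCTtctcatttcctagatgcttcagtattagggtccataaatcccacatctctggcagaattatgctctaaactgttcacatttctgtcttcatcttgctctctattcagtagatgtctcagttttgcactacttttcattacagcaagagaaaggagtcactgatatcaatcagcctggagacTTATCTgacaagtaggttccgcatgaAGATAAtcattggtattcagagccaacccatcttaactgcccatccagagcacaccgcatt
Fcgr3 promoter: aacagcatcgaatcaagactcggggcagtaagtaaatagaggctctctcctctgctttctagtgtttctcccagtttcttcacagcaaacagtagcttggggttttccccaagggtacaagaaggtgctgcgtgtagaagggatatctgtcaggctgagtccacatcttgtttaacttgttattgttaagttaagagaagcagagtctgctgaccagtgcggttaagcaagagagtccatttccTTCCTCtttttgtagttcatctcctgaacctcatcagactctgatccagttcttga
AGATAA occurred 1 time in the Fcer1a promoter, 3 times in that of Ms4a2 and not in the windows of the other 5 genes, while 11.2% of 32851 promoters of the same length held it. GAGGAA occurred 1 time each in the promoters of Fcer1a, Fcgr3, Fcgr1 and Fcgr4, and in 28.3% of all promoters. The shorter core GATA, with its reverse complement TATC, occurred in the windows of all 7 genes and in 57.9% of all promoters. It occurred 6 times in that of Fcgr4, 5 in Ms4a2, 2 each in Fcer1a and Fcgr3, and 1 each in Fcer1g, Fcgr2b and Fcgr1. A match is a description of the letters, not of binding.

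After filtering, 5139 cells of CML imatinib, 4187 of WT imatinib, 3032 of CML untreated and 3030 of WT untreated were kept, with median depths of 1198, 1486, 5160.5 and 3637.5 unique molecular identifiers (UMIs) per cell. Depth and treatment therefore differed together. The CML untreated library stood apart in sex-linked genes: Xist was at 94.97, 3.15, 2375 and 1.52 UMIs per 1000000 (CPM) in the libraries in that order, and the Y-linked Ddx3y at 45.2, 29.4, 1.504 and 43.6 CPM. Each comparison with that library therefore also compares libraries that differ in these genes. CML imatinib also had more Xist than WT imatinib, at 94.97 against 3.15 CPM, so that pair was not matched in Xist either. WT imatinib and WT untreated shared 1135 cell barcode names, of 5575 and 2863 distinct names, and other pairs of libraries shared 80 to 340. Cells with the same name had a mean correlation of -0.015 to 0.011 between their profiles over the pairs of libraries. The sort gene Kit was at 136 to 176 CPM in all libraries, and Ly6a, the gene of Sca1, at 51.0 CPM in CML imatinib, 49.6 CPM in WT imatinib, 95.8 CPM in CML untreated and 192 CPM in WT untreated.

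To place the receptor genes in cells, each cell was assigned by at least 2 UMIs of a marker: Prss34 or Cma1 for mast cells and basophils, Ngp for neutrophils, Ccr2 for monocytes, Elane for granulocytic progenitors, and Klf1 or Car1 for erythroid cells, in this order, with T cells taken by Cd3 genes before the last. The mast or basophil gate held 306 cells of CML imatinib, 136 of WT imatinib, 30 of CML untreated and 0 of WT untreated. The neutrophil gate held 347, 143, 0 and 0 cells, the monocyte gate 177, 168, 362 and 313, and the granulocytic gate 3161, 2830, 436 and 300. Because a gate needs UMIs, it passes deeper cells more easily, and its counts of cells are not compared between libraries of unlike depth.

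The IgE receptor alpha chain was lowest in WT untreated cells and several-fold higher in the other 3 libraries. Fcer1a had 72.1 CPM in CML imatinib (66.8 to 77.7, 688 UMIs), 71.1 CPM in WT imatinib (65.4 to 77.1, 586 UMIs), 51.0 CPM in CML untreated (48.0 to 54.1, 1085 UMIs) and 9.50 CPM in WT untreated (7.91 to 11.3, 125 UMIs). The first 2 libraries could not be told apart by counting error, and the order below them was clear of it. Few cells carried this signal: in CML untreated, 4 cells held 50% of the Fcer1a UMIs and 1 cell held 252, whereas 27, 27 and 15 cells held 50% in CML imatinib, WT imatinib and WT untreated. In sums over a library, fewer cells of a type and less RNA per cell cannot be told apart.

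Ms4a2, the beta chain, did not share the low level of WT untreated. It had 30.2 CPM in CML imatinib, 30.9 CPM in WT imatinib, 22.9 CPM in CML untreated and 23.9 CPM in WT untreated, from 288, 255, 487 and 314 UMIs. Its ratio of CML untreated to WT untreated was 0.959 (0.830 to 1.11), against 5.36 (4.45 to 6.51) for Fcer1a. The shared gamma chain Fcer1g had 176.5 CPM in CML imatinib, 186 CPM in WT imatinib, 75.6 CPM in CML untreated and 125 CPM in WT untreated. Untreated CML cells were the lowest for Fcer1g, with counting intervals clear of the other 3 libraries (72.0 to 79.4 CPM, against 119 to 131 CPM in WT untreated).

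**Figure D1:**
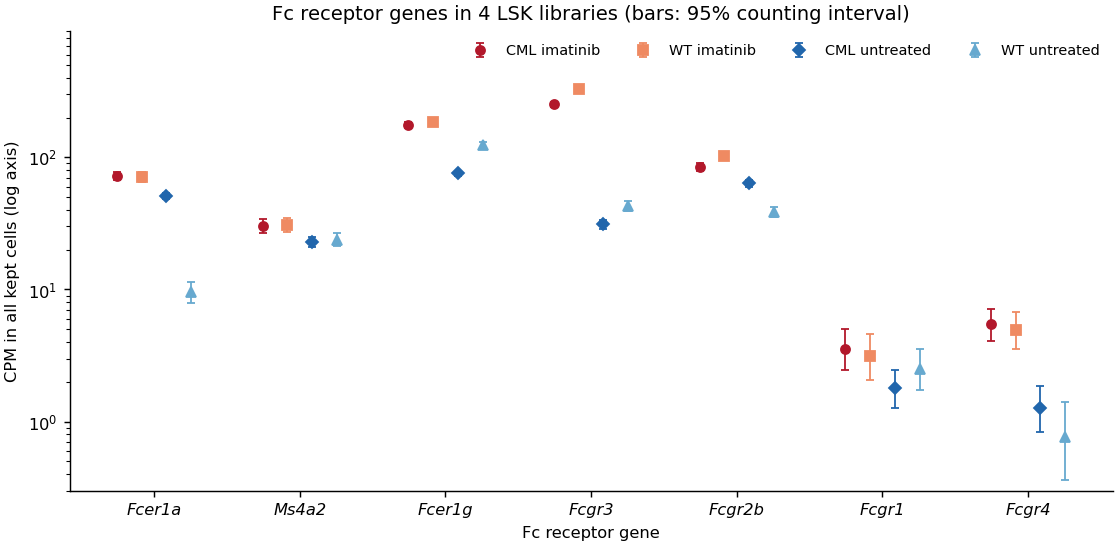
Level of each Fc receptor gene (x axis) in CPM over all kept cells (log y axis) in the 4 libraries, with bars for the 95% counting interval. Fcgr3 is at 253 and 329 CPM in the imatinib libraries, above 31.1 and 42.7 CPM in the untreated ones, while Ms4a2 stays between 22.9 and 30.9 CPM.

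Among the IgG receptors, the activating Fcgr3 differed most between imatinib and untreated libraries of those with at least 50 CPM and 50 UMIs in a library. It had 253 CPM in CML imatinib and 329 CPM in WT imatinib, against 31.1 CPM in CML untreated and 42.7 CPM in WT untreated, from 2409, 2716, 661 and 562 UMIs. The inhibitory Fcgr2b varied less, with 84.2 CPM in CML imatinib, 103 CPM in WT imatinib, 63.5 CPM in CML untreated and 38.4 CPM in WT untreated. Its order in untreated cells was the reverse of that of Fcgr3: Fcgr2b was 1.65-fold higher in CML untreated than in WT untreated (1.49 to 1.83), and Fcgr3 was 1.38-fold lower (1.23 to 1.54). Fcgr3 and Fcgr2b have nearly identical extracellular sequence, and whether the counting split any reads between them was not tested. Fcgr1 and Fcgr4 were rare in all 4 libraries, at 1.79 to 3.56 CPM and 0.760 to 5.45 CPM.

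A difference was called at 2-fold or more, where the library with the higher level had 50 CPM and 50 UMIs or more. On this rule the comparisons of imatinib with no treatment called more receptor genes than those of genotype. That was also so over all genes, with 17.4% called in CML and 13% in WT, against 0.915% between untreated genotypes and 2.5% between imatinib ones. CML imatinib against CML untreated called 2 of the 4 receptor genes that passed the floor, both higher, where 9.4% of 4265 tested genes were called higher and 7.95% lower: Fcgr3 at 8.13-fold (7.46 to 8.87) and Fcer1g at 2.33-fold (2.18 to 2.50). With TMM scaling the Fcer1g difference was under 2-fold, at a log2 ratio of 0.90. WT imatinib against WT untreated called 3 of 4, all higher, where 7.58% of 4092 genes were called higher: Fcgr3 at 7.71-fold (7.04 to 8.46), Fcer1a at 7.48-fold (6.16 to 9.15) and Fcgr2b at 2.69-fold (2.40 to 3.004). Without the mast or basophil gate, in which WT untreated had no cell, the WT log2 ratio of Fcer1a was -0.17 in place of 2.90. That of Ms4a2 was -1.09 in place of 0.37. The same comparison in CML gave 1.41-fold for Fcer1a (1.28 to 1.56) and 1.33-fold for Fcgr2b (1.21 to 1.45), both short of the call. These pairs of libraries also differed in their markers of maturing cells. All 7 granulocytic marker genes were called higher with imatinib in CML and in WT, with summed levels of 18156.5 CPM in CML imatinib, 24010 CPM in WT imatinib, 3846 CPM in CML untreated and 4467 CPM in WT untreated. The part of these markers in the sums over whole libraries was not tested, and levels within gated cells are given after these.

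Between genotypes, CML untreated against WT untreated called 1 of 3 receptor genes, Fcer1a at 5.36-fold, where 0.523% of 3824 genes were called higher and 0.392% lower. That difference depended on the 30 mast or basophil gate cells of CML untreated: without them, the log2 ratio of Fcer1a was -0.31 in place of 2.42. WT untreated had no cell in this gate, so leaving the gate out took UMIs from CML untreated alone. With the mean of single-cell CPM and without the 5% deepest cells Fcer1a was under 50 CPM and not called, at log2 ratios of 1.83 and 2.10. The summed level of 13 mast or basophil markers was 1058 CPM in CML untreated and 359 CPM in WT untreated, with the mast cell protease Cma1 at 216 and 0.228 CPM. CML imatinib against WT imatinib called 0 of 4 receptor genes, where 2.32% of 3914 genes were called higher and 0.179% lower (2.5% in either direction). The ratios there were 1.01 for Fcer1a (0.908 to 1.13), 0.948 for Fcer1g (0.884 to 1.02), 0.767 for Fcgr3 (0.725 to 0.810) and 0.816 for Fcgr2b (0.740 to 0.900).

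Mast or basophil cells held most of the Fcer1a signal wherever they were found. Fcer1a stood at 1163 CPM in this gate in CML imatinib, 2335 CPM in WT imatinib and 4472 CPM in CML untreated, and these cells held 84.9%, 88.4% and 85.1% of all Fcer1a UMIs of their libraries. Over the other cells of the same library the gate was 101-fold higher in CML imatinib and 275-fold higher in WT imatinib. Ms4a2 was at 406, 744 and 654 CPM in the gate of the same 3 libraries, and the gate held 70.8%, 64.7% and 27.7% of its UMIs. Fcer1g was at 623, 798 and 572 CPM there, and only 18.6%, 11.5% and 7.33% of its UMIs were in these cells. The alpha chain was thus the most restricted to this gate of the 3 IgE receptor chains by share of UMIs in each of the 3 libraries, and the gamma chain the least. Against the other cells of the library, 3 of 5 receptor genes past the gate floor of 50 CPM and 20 UMIs were called higher in CML imatinib (Fcer1a, Ms4a2 and Fcer1g; 6.25% of tested genes) and the same 3 of 5 in WT imatinib (7.49% of tested genes). In CML untreated Fcgr3 was also called higher, which made 4 of 5 (9.55% of tested genes).

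**Figure D2:**
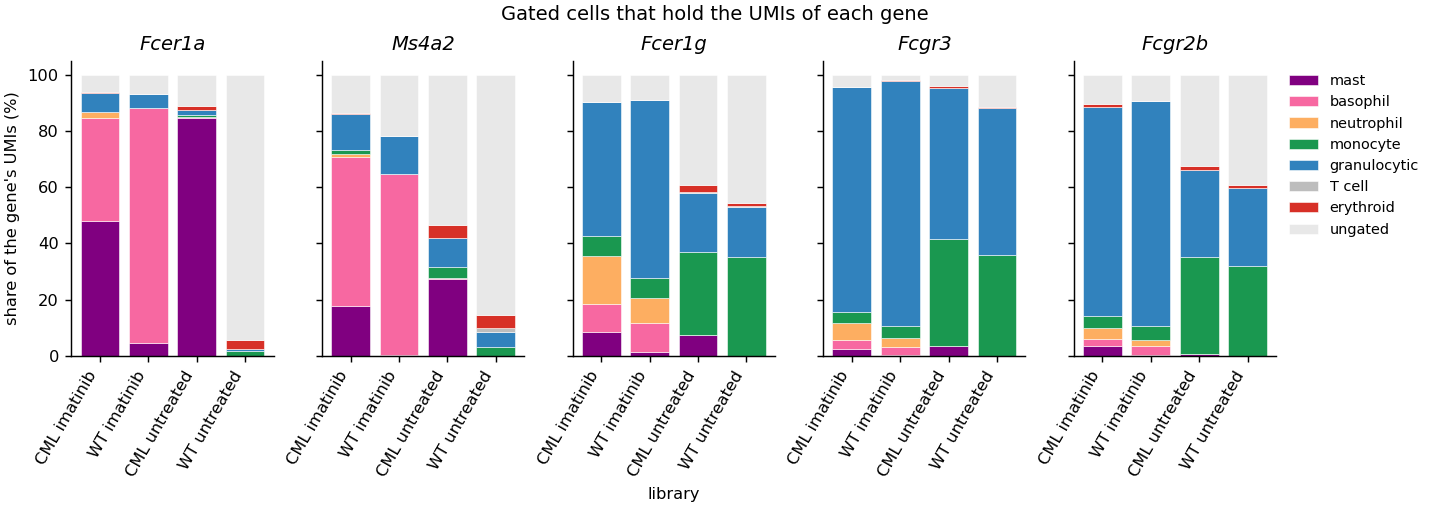
Share of each gene's UMIs (y axis, percent) held by each gate in the 4 libraries (x axis), stacked to the whole. For Fcer1a the mast or basophil gate holds 84.9%, 88.4% and 85.1% in CML imatinib, WT imatinib and CML untreated, and ungated cells hold 94.4% in WT untreated, while for Fcgr3 the granulocytic gate holds 80.0%, 87.3%, 53.7% and 52.5%.

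The mast and the basophil side of the gate differed in Ms4a2 in both imatinib libraries. On the basophil side, where Prss34 was at least as high as Cma1, Fcer1a was at 1281 CPM in CML imatinib and 2530.1 CPM in WT imatinib, and Ms4a2 at 771 and 843 CPM. The mast side had 1086 CPM of Fcer1a and 168 CPM of Ms4a2 in CML imatinib. Among cells of CML imatinib that passed no other myeloid gate, the order of the sides turned for Fcer1a, at 3601 CPM on the mast side and 1881 CPM on the basophil side, and Ms4a2 was at 474 and 1154 CPM. The mast side had 4669.8 CPM of Fcer1a and 682 CPM of Ms4a2 in CML untreated, where 29 of the 30 gated cells were on this side. In WT imatinib the mast side held 20 cells and 1 UMI of Ms4a2. Of the 184 mast-side cells of CML imatinib, 126 also passed another myeloid gate, against 4 of 29 in CML untreated, so the mast side of CML imatinib was the more mixed of these by this measure. Granulocytic markers summed to 8833 CPM on the mast side of CML imatinib and 1699 CPM on that of CML untreated. B and plasma cell markers, which the measure leaves out, went the other way, at 102 and 9828 CPM. Their median was 0 UMIs per cell in both.

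The Fcer1a level inside the gate was lower in CML imatinib than in CML untreated and WT imatinib, by an amount that depended on the cells that also passed another myeloid gate. Against CML untreated the difference was 3.85-fold lower (3.46 to 4.27), where 10.8% of 3448 genes were called lower, and 2 of the 5 receptor genes past the floor, Fcgr3 and Fcgr2b, were called higher, where 29.6% of genes were. In cells of the whole gate that passed no other myeloid gate the log2 ratio of Fcer1a was -0.92 in place of -1.94, short of the call, and that of Ms4a2 was 0.30 in place of -0.69. In mast-side cells alone the log2 ratio of Fcer1a was -2.10, but it was -0.44 among cells that passed no other myeloid gate, with 3601 CPM in 58 cells of CML imatinib and 4868 CPM in 25 cells of CML untreated. The log2 ratios of Ms4a2 were -2.02 and -0.59. Against WT imatinib, Fcer1a was 2.01-fold lower in the whole gate (1.78 to 2.26), where 5.23% of 3307 genes were called lower and 9.34% higher. That call was lost under all 5 alternatives run for this gate, with log2 ratios of -0.995 to -0.19 in place of -1.006, and the smallest difference was among cells that passed no other myeloid gate (2569 CPM in CML imatinib and 2927 CPM in WT imatinib). On the basophil side it was 1.98-fold lower (1.70 to 2.31), short of the call, where 7.46% of 2264 genes were called lower and 9.54% higher, while Ms4a2 and Fcer1g had ratios of 0.915 (0.729 to 1.15) and 1.08 (0.865 to 1.35).

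Alpha and beta chain were found together in single cells of the gate. Of Fcer1a-positive cells, 47 of 124 (37.9%) in CML imatinib, 58 of 102 (56.9%) in WT imatinib and 18 of 22 (81.8%) in CML untreated also had a UMI of Ms4a2. Of the Fcer1a-negative cells in the same gate, 13.7%, 2.94% and 12.5% had one. The positive cells were deeper, with medians of 1551.5, 1489 and 6208.5 UMIs, against 1054, 947 and 2939.5 in the negative ones, and the part of depth in these shares was not tested. Fcer1g was found with Fcer1a in 63 of 124 (50.8%), 66 of 102 (64.7%) and 20 of 22 (90.9%) cells. Of the Fcer1a-negative cells of the gate, 19.2%, 29.4% and 0% had Fcer1g, the last of 8 cells.

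WT untreated had no cell in the mast or basophil gate, and a count of 0 of 3030, taken as 3 counts, allows a share of cells with 2 UMIs of Prss34 or Cma1 of up to 0.0990% (0.122% by the exact interval). Its Fcer1a lay elsewhere: 118 of 125 UMIs (94.4%) were in cells that passed no gate, at 14.7 CPM. It was seen in 2.55% of these cells and in 1.59% of erythroid ones, at median depths of 3279.5 and 4428 UMIs, and with cells thinned to 500 UMIs in 0.682% and 0%. Ungated cells of CML imatinib, WT imatinib and CML untreated had 40.6, 46.4 and 10.9 CPM. Ms4a2 was also mainly ungated in both untreated libraries, with 53.4% of its UMIs in CML untreated and 85.4% in WT untreated, at 23.4 and 33.4 CPM. Cells of the erythroid gate had 10.8 and 15.2 CPM of Ms4a2 in these libraries. Their 11 mast or basophil markers summed to 418 and 454 CPM, so they are not taken as cells that lack the receptor.

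These ungated cells with an IgE receptor UMI had higher sums of the mast or basophil marker list than ungated cells without one. The 11 remaining mast or basophil markers summed to 6877 CPM in the 23 ungated Fcer1a-positive cells of CML imatinib, against 609 CPM in the ungated negative ones. The values were 4001 against 544 CPM in 24 cells of WT imatinib, 2457 against 357 CPM in 42 cells of CML untreated and 1446 against 427 CPM in 56 cells of WT untreated. Positive cells were higher in all 4 libraries, by less in the untreated ones. In the positive cells of WT untreated, Gata2 was at 759 CPM, Cpa3 at 426 CPM and Gzmb at 33.8 CPM. In those of CML untreated they were at 751, 906 and 545 CPM. Negative cells held 240 CPM of Gata2 in WT untreated and 223 CPM in CML untreated, so these sums do not name a cell type on their own. For Ms4a2-positive ungated cells of WT untreated the sum was 1797 CPM in 78 cells, against 394 CPM. Fcer1a and Ms4a2 overlapped there too, with Ms4a2 in 10 of 56 Fcer1a-positive cells (17.9%) and in 3.17% of the negative ones. Fcer1g did not, in 10.7% of the Fcer1a-positive ungated cells of WT untreated and in 20.4% of the negative ones. These shares were 7.14% and 14.4% in CML untreated, 8.70% and 7.45% in CML imatinib, and 20.8% and 9.46% in WT imatinib.

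**Figure D3:**
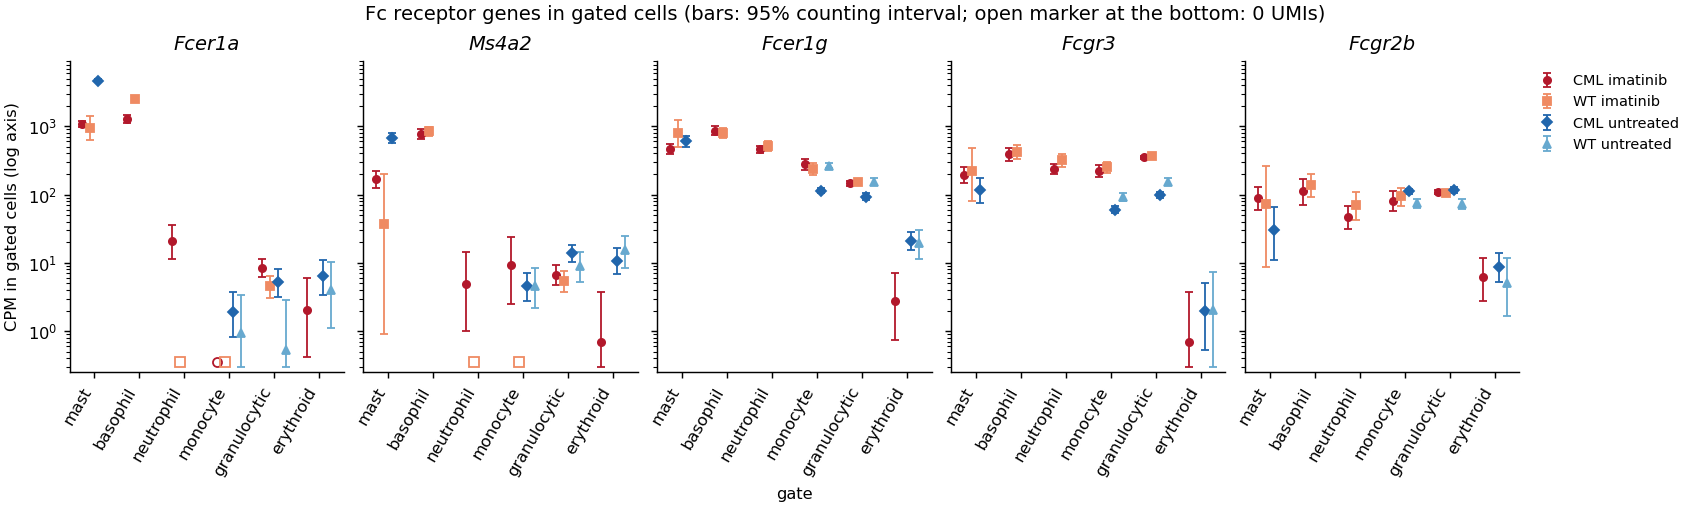
Level of 5 Fc receptor genes in CPM (log y axis) in the cells of each gate (x axis) by library, with 95% counting intervals and open markers for 0 UMIs. Fcer1a and Ms4a2 are highest on the mast and basophil sides, except that Ms4a2 has 1 UMI on the mast side of WT imatinib, whereas Fcgr3 and Fcgr2b are spread over all myeloid gates and, of the 6 gates plotted, are lowest in the erythroid one.

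Granulocytic progenitors held most of the UMIs of Fcgr3, the activating low-affinity IgG receptor. The Elane gate held 80.0% of Fcgr3 UMIs in CML imatinib, 87.3% in WT imatinib, 53.7% in CML untreated and 52.5% in WT untreated. Against the other cells of the same library, the gate was called higher in Fcgr3 and Fcgr2b in CML imatinib (2 of 5 receptor genes past the gate floor, 4.35% of tested genes), CML untreated (2 of 4, 1.48%) and WT untreated (2 of 3, 2.86%). In WT imatinib, where the gate held 67.6% of all cells, it was called higher in 0 of 5 (1.18%). Within it, Fcgr3 was at 350.4 CPM in CML imatinib and 369 CPM in WT imatinib, where the basophil side had 388 and 422 CPM. The granulocytic gate had 97.9 CPM in CML untreated and 154 CPM in WT untreated. The imatinib libraries were close to each other and both lay above the untreated ones. Imatinib against untreated gave 3.58-fold in CML (3.19 to 4.02), where 6.41% of 4074 genes were called higher and 7.02% lower, and 2.40-fold in WT (2.12 to 2.71), where 4.21% of 3988 genes were higher and 3.11% lower. Fcgr3 was the 1 receptor gene called in each. With gates set on cells thinned to 500 UMIs the log2 ratios were 1.27 in CML and 0.99 in WT, the second of them short of the call. These folds were smaller than the 8.13 and 7.71 over whole libraries.

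Cells with a UMI gave the same order once depth was made equal. Fcgr3 was seen in 32.9%, 42.2%, 30.0% and 39.0% of granulocytic gate cells of CML imatinib, WT imatinib, CML untreated and WT untreated, at median depths of 1363, 1890, 6378.5 and 6170 UMIs. With cells thinned to 500 UMIs the shares were 15.2%, 15.8%, 4.36% and 7%. In the erythroid gate, which should lack it, Fcgr3 was seen in 0.633%, 1.72% and 1.06% of cells of CML imatinib, CML untreated and WT untreated, at median depths of 5048, 7061 and 4428 UMIs. The erythroid gate of WT imatinib held 19 cells, 1 of them with Fcgr3.

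Fcgr3 followed the level of Elane, the neutrophil elastase gene that defines the gate. In bins of under 2000, 2000 to 5000, 5000 to 10000 and at least 10000 CPM of Elane per cell, which were chosen after the values had been seen, Fcgr3 was at 133, 219, 313 and 446 CPM in CML imatinib. It was at 118, 226, 349.9 and 440.5 CPM in WT imatinib, at 27.8, 97.7, 179 and 347 CPM in CML untreated and at 41.6, 119, 175 and 362 CPM in WT untreated. The level was higher in each bin than in the one below it in all 4 libraries. The top bin held 1368 of 3161 gated cells in CML imatinib, 1334 of 2830 in WT imatinib, 34 of 436 in CML untreated and 48 of 300 in WT untreated. These counts are not compared between libraries of unlike depth, since a shallow cell needs a higher Elane CPM to pass the gate. In the top bin the log2 ratio of imatinib to untreated was 0.36 in CML and 0.28 in WT, against 1.84 and 1.26 over the whole gate. The difference was larger in the lowest bin, at 133 against 27.8 CPM in CML and 118 against 41.6 CPM in WT. The part of the Elane level in the difference between libraries was not tested. Fcer1g ran the other way from the second to the top bin, at 164 and 125 CPM in CML imatinib, 215 and 107 CPM in WT imatinib, 125 and 29.2 CPM in CML untreated and 227 and 50.6 CPM in WT untreated.

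**Figure D4:**
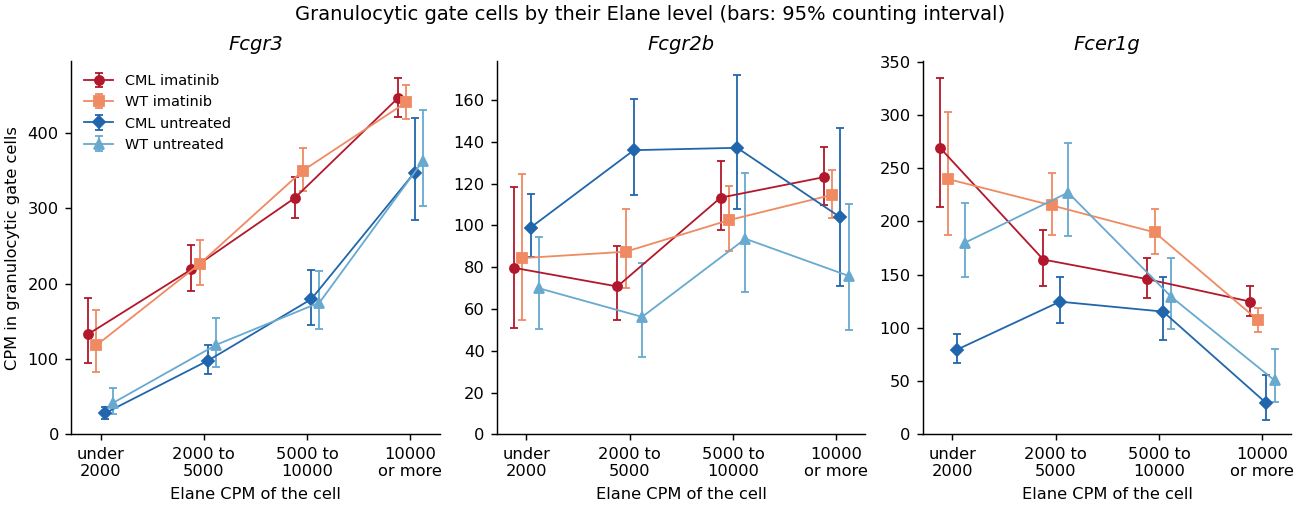
Levels of 3 Fc receptor genes in CPM (y axis) in granulocytic gate cells grouped by the Elane level of the cell (x axis), by library, with 95% counting intervals. Fcgr3 climbs with Elane in all 4 libraries, to between 347 and 446 CPM in the top bin, and Fcer1g is lower there than in the second bin.

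Fcgr2b was not called with imatinib in granulocytic cells, though its ratio in WT was above 1 beyond counting error. It was at 109 CPM in CML imatinib, 106 CPM in WT imatinib, 116 CPM in CML untreated and 73.5 CPM in WT untreated, which gave imatinib ratios of 0.940 in CML (0.829 to 1.07) and 1.44 in WT (1.20 to 1.74). The 2.69-fold difference of Fcgr2b over the whole WT libraries was therefore larger than in these cells. Fcer1g was not called in the whole gate either, at 146, 151, 93.5 and 155 CPM, with ratios of 1.56 in CML (1.37 to 1.77) and 0.978 in WT (0.858 to 1.12). In cells of at least 10000 CPM of Elane it was called higher with imatinib, at log2 ratios of 2.09 in CML and 1.08 in WT. The untreated libraries had 9 and 18 UMIs of it there. Between the untreated genotypes no receptor gene was called in this gate, where 1.03% of 3896 genes were called higher and 0.462% lower. Between the imatinib libraries none was called either, with 0.46% of 3694 genes higher and 0.0812% lower, and Fcgr3, Fcgr2b and Fcer1g had ratios of 0.95 (0.894 to 1.01), 1.03 (0.920 to 1.15) and 0.962 (0.875 to 1.06).

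Monocyte gate cells carried the same IgG receptors with a genotype difference in Fcer1g. Fcgr3 was at 225 CPM in CML imatinib and 253 CPM in WT imatinib, against 60.4 CPM in CML untreated and 92.9 CPM in WT untreated. Imatinib against untreated gave 3.72-fold in CML (2.92 to 4.73; 11.2% of 4312 genes called higher and 9.25% lower) and 2.73-fold in WT (2.15 to 3.44; 6.85% of 4202 genes higher and 5.74% lower). Fcer1g had 276 CPM in CML imatinib, 238 CPM in WT imatinib, 114 CPM in CML untreated and 266 CPM in WT untreated. CML untreated was the library apart: it was 2.34-fold lower than WT untreated (2.07 to 2.64), where 1% of 3893 genes were called lower and 0.745% higher, and CML imatinib was 2.42-fold higher than it (1.97 to 2.97). Fcgr2b was at 81.2, 93.9, 112 and 74.4 CPM in CML imatinib, WT imatinib, CML untreated and WT untreated and was not called in any of these pairs. Between the imatinib libraries no receptor gene was called in this gate, where 5.92% of 4289 genes were called higher and 4.64% lower. Against the other cells of its library the gate was called higher in Fcgr3 and Fcgr2b in CML untreated (2 of 4, 1.97% of tested genes) and in these and Fcer1g in WT untreated (3 of 3, 2.54%), but in 0 of 4 in CML imatinib (2.54%) and 0 of 4 in WT imatinib (1.68%). This gate was not pure. Most of its cells also passed another myeloid gate, 143 of 177 in CML imatinib, 142 of 168 in WT imatinib, 246 of 362 in CML untreated and 201 of 313 in WT untreated, and its granulocytic markers summed to 5951 to 12098 CPM, against 899.9 to 2106 CPM for the 7 monocyte markers other than Ccr2. Cells that passed this gate alone numbered 34 in CML imatinib and 26 in WT imatinib, where 6 Fcgr3 UMIs in each were under the 20 needed for a call. The log2 ratios of Fcgr3 to the untreated libraries were larger there, at 3.45 in CML and 2.82 in WT, in place of 1.90 and 1.45, and that of Fcer1g in CML was 1.76 from 16 UMIs, in place of 1.28. In cells of this gate alone the log2 ratio of Fcer1g in CML untreated against WT untreated was -2.28, in place of -1.22.

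Neutrophil gate cells were found with imatinib alone among the 4 libraries, and they were high in the gamma chain. Fcer1g was at 465 CPM in CML imatinib and 518 CPM in WT imatinib, 2.97-fold and 2.96-fold above the other cells of the same libraries. It was the 1 receptor gene of 4 called higher in each (6.48% and 8.35% of tested genes). Of these cells, 171 of 347 in CML imatinib and 63 of 143 in WT imatinib also passed another myeloid gate, and in those that did not Fcer1g was at 980 CPM in CML imatinib and 1078 CPM in WT imatinib. In the whole gate Fcgr3 stood at 236 and 319 CPM and Fcgr2b at 47.0 and 69.8 CPM in these cells. Between the 2 libraries no receptor gene was called in this gate, where 11.1% of 3432 genes were higher and 3.58% lower in CML imatinib.

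Activating and inhibitory receptor can be set side by side as captured molecules. Over all cells there were 3 Fcgr3 UMIs per Fcgr2b UMI in CML imatinib (2.77 to 3.25) and 3.20 in WT imatinib (2.96 to 3.46), against 0.489 in CML untreated (0.445 to 0.537) and 1.11 in WT untreated (0.985 to 1.26). The ratio was thus lowest in CML untreated and did not differ between the imatinib libraries beyond counting error. CML untreated was also lowest, and WT untreated next, in granulocytic cells, at 3.22, 3.48, 0.845 and 2.09, and in monocyte gate cells, at 2.77, 2.70, 0.541 and 1.25. In the mast or basophil gate it was 2.78 in CML imatinib, 3.03 in WT imatinib and 3.43 in CML untreated, the last from 24 and 7 UMIs (1.43 to 9.42). Ungated cells had the fewest Fcgr3 per Fcgr2b UMI of the gates with at least 20 cells other than erythroid and T cells in every library, at 1.24, 0.667, 0.0592 and 0.323. These are counts of molecules as captured and are compared across libraries, not as amounts of the 2 RNAs.

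**Figure D5:**
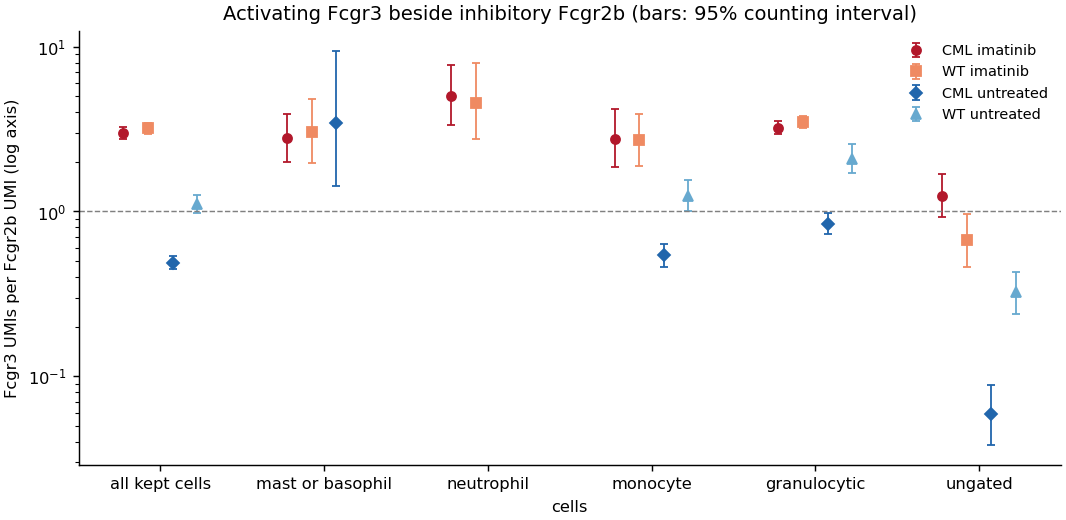
Fcgr3 UMIs per Fcgr2b UMI (log y axis) over all kept cells and by gate (x axis) in the 4 libraries, with 95% counting intervals and a dashed line at 1. In granulocytic cells the ratio is 3.22 and 3.48 in the imatinib libraries and 0.845 and 2.09 in CML untreated and WT untreated.

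The high-affinity receptor Fcgr1 and the neutrophil receptor Fcgr4 stayed below the floor for a call in all comparisons of whole libraries. Fcgr1 had 34 UMIs in CML imatinib, 26 in WT imatinib, 38 in CML untreated and 33 in WT untreated, and 0 in mast or basophil cells of any library. Its UMIs lay in granulocytic cells (17, 19, 4 and 7) and in ungated ones (8, 4, 25 and 14), with 1, 3, 8 and 10 in the monocyte gate. The erythroid gate held 7, 0, 1 and 2, and in CML imatinib its level of 4.78 CPM was above the 3.09 CPM of the granulocytic gate. Fcgr4 had 52 UMIs in CML imatinib and 41 in WT imatinib, against 27 in CML untreated and 10 in WT untreated, or 4.30-fold more CPM with imatinib in CML (2.65 to 7.12) and 6.54-fold in WT (3.22 to 14.6). In CML imatinib, 26 of the 52 lay in 8 ungated cells whose 8 neutrophil markers other than Ngp summed to 100289 CPM, against 2965 CPM in ungated cells without Fcgr4. In WT imatinib 34 of 41 lay in the granulocytic gate, which held 78.0% of all UMIs of that library. By level the neutrophil gate was above the granulocytic gate. It had 18.4 CPM from 5 UMIs against 5.29 CPM in WT imatinib, and 11.3 CPM from 7 UMIs against 2.55 CPM in CML imatinib.

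Genes most like each receptor gene were taken by Pearson's r of log2(CPM + 1) across the 24 sums of a library and a gate. There were 14847 genes compared. The sums share libraries and depth and were formed by marker gates. Likeness to marker genes is thus partly built in, and r is a description. Fcer1a was nearest to Cyp11a1 (0.95), Cd200r3 (0.93) and Il6 (0.92), and Ms4a2 to Slc7a8 (0.93), Padi2 (0.92) and Itga2b (0.88). Cyp11a1, a steroid synthesis enzyme, was on the mast or basophil marker list, and Cd200r3 is a receptor of mouse mast cells and basophils. Itga2b was on a list of megakaryocyte markers. Fcer1g was nearest to Tyrobp (0.96), which encodes another ITAM adaptor, and then to Hdc (0.90), the enzyme that makes histamine, and Aff1 (0.90). Hdc was also on the mast or basophil marker list. Fcgr3 was nearest to Clec12a (0.94), an inhibitory myeloid lectin, with Hexa (0.93) and Gstm1 (0.93). Fcgr2b was nearest to Ctsg (0.96), a granule protease of granulocytic cells, with Gria3 (0.94) and Clec12a (0.94). Fcgr4 was nearest to Mapk13 (0.87), Olfml2b (0.85) and Map3k15 (0.85). Fcgr1 was under 10 CPM in every sum, and its nearest genes are not given. Among the receptor genes r was 0.82 for Fcer1a with Ms4a2, 0.86 for Fcer1g with Fcgr3 and 0.88 for Fcgr2b with Fcgr3.

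Few of the genes that signal behind the receptors were called in the comparisons of imatinib with no treatment. The calls are given beside the shares over all genes and are not read as a trait of these genes. Of 29 listed kinases, adaptors and phosphatases, 16 passed the floor in CML imatinib against CML untreated, with 1 called higher (9.4% of all genes) and 1 lower (7.95%) and a median log2 ratio of 0.12, against -0.05 over all genes tested. The adaptor Tyrobp was at 144 CPM in CML imatinib and 41.8 CPM in CML untreated, and the kinase Fyn at 12.8 and 60.9 CPM. In WT imatinib against WT untreated 3 of 19 were called higher (7.58% of all genes) and 1 lower (5.45%), with a median of 0.15 against -0.05. Prkcb, a protein kinase C gene, was at 55.1 CPM in WT imatinib and 7.30 CPM in WT untreated, and Fyn at 10.7 and 60.1 CPM. Between genotypes 0 of 16 were called in untreated cells and 0 of 17 with imatinib. T cell markers, 8 genes in all, were also lower with imatinib, at a sum of 12.9 CPM in CML imatinib and 16.9 CPM in WT imatinib, against 119 CPM in CML untreated and 124 CPM in WT untreated, and their part in the Fyn values was not tested. Of 12 other Fc receptor and Fc-binding genes, none passed the floor in any of the 4 comparisons, and only Trim21, the cytosolic antibody receptor, came near 10 CPM or above, at 9.96, 8.73, 18.7 and 19.8 CPM in CML imatinib, WT imatinib, CML untreated and WT untreated.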

How the data were processed

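The deposited tables give a signal per gene and cell that the authors scaled to a near-constant total per cell (2788.726 to 2839.187 over the 4 files, from the values themselves). The build was GRCm38 (mm10) and the tools were Bowtie 1.1.1 and Partek 8.0, per the submitters' processing notes, and the steps these were used for are not given in the sources used here. Every value divided by the smallest nonzero value of its cell was whole within 0.02 (100% of values), and these whole numbers were taken as UMIs. Cells were read by column position, since the header holds 1 name more than there are columns. All columns belonged to a labelled library (0 unmapped). Cells with at least 500 UMIs, 200 genes and at most 20% mitochondrial UMIs were kept, 15388 of 18822. Totals were 9540004 UMIs in CML imatinib, 8245224 in WT imatinib, 21283108 in CML untreated and 13153658 in WT untreated.

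UMIs were summed per library or gate and given as CPM with exact Poisson intervals, shares with exact binomial intervals and ratios with exact conditional binomial intervals. A call needed 2-fold, with 50 CPM and 50 UMIs in the higher library (50 CPM and 20 UMIs within a gate of at least 20 cells). Gates needed 2 UMIs, and a mast or basophil cell was on the mast side where Cma1 was above Prss34. Marker sums within gates left out the gate genes. No doublet caller was run, and leaving out the 5% deepest cells served as an alternative. Python 3.11.15, numpy 2.4.6, scipy 1.17.1, pandas 2.3.3 and matplotlib 3.10.9 were used, and edgeR 4.0.16 under R 4.3.3 for TMM factors alone. The members and lists were chosen with earlier results of these data known. Named beyond the members are the 3 genes most like each one except Fcgr1, and the signalling genes with the largest differences. Alternatives were no cell filter or 1000 UMIs per cell, scaling by TMM, totals without ribosomal protein, mitochondrial and haemoglobin genes, means of single-cell CPM, thinning to 500 UMIs, no mast or basophil cells, a call floor of 10 CPM and 20 UMIs, gates of 1 and 4 UMIs, cells of a single gate, and 2 added after seeing the data (gates set on thinned cells, and granulocytic cells of at least 10000 CPM of Elane).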

Additional observations from a re-analysis of the deposited data

Results flagged for a closer look

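Fcgr2b, the inhibitory IgG receptor, was set apart because its genotype difference ran in opposite directions without and with imatinib. Its log2 ratio of CML untreated to WT untreated was 0.73, at 63.5 CPM in CML untreated and 38.4 CPM in WT untreated. Its log2 ratio of CML imatinib to WT imatinib was -0.29, at 84.2 CPM in CML imatinib and 103 CPM in WT imatinib. Each group was 1 library, so the difference between the 2 ratios was not tested, and neither ratio reached 2-fold.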

How the results depend on the processing

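Of 221 log2 ratios between libraries under an alternative, 160 stayed within the counting interval of the reported value and the others left it. Within gates, 283 of 353 stayed and 70 left it. The sign changed in 18 ratios between libraries, 2 of them of called differences, and in 47 within gates, 0 of them called. Among these, 4 between libraries and 8 within gates had a reported interval that left out 0. The 4 were all without the mast or basophil gate: Fcer1a, called, at -0.17 in WT imatinib against WT untreated (reported 2.90) and -0.31 in CML untreated against WT untreated (reported 2.42), and Ms4a2, not called, at -0.85 in CML imatinib against CML untreated (reported 0.40) and -1.09 in WT imatinib against WT untreated (reported 0.37). The 8 were of Ms4a2 (mast or basophil gate, 0.30 for -0.69, and granulocytic gate, 0.70 for -1.06, both in CML imatinib against CML untreated), Fcer1g (mast or basophil gate of CML imatinib against WT imatinib, 0.22 and 0.02 for -0.36), Fcgr3 (neutrophil gate of the same libraries, 0.05 to 0.16 under 3 settings for -0.43) and Fcgr2b (monocyte gate of CML untreated against WT untreated, -0.48 for 0.59). TMM scaling left 1 called receptor gene, Fcgr3, in CML imatinib against CML untreated. It moved the median log2 ratio of all tested genes in that comparison from -0.05 to -0.43, against which its Fcer1g ratio of 0.90 is read, and to between -0.15 and -0.34 in the other 3. In CML untreated against WT untreated the count of called genes was 0 with means of single-cell CPM, 0 without the 5% deepest cells and 0 without the mast or basophil gate. Within the monocyte gate it was 0 in both imatinib comparisons among cells of a single gate, where 34 cells of CML imatinib and 26 of WT imatinib were left, and 1 (Fcer1g) in CML with gates set on thinned cells. Fcgr3 was under the 20 UMIs a call needs in these, with log2 ratios of 3.45 in CML and 2.82 in WT among cells of a single gate and 1.46 in CML with thinned gates. In the granulocytic gate of WT imatinib against WT untreated it was 0 with gates set on thinned cells, where Fcgr3 had a log2 ratio of 0.99. Among granulocytic cells of at least 10000 CPM of Elane the count stayed at 1 in CML and in WT, but the gene was Fcer1g (log2 ratios of 2.09 and 1.08) and not Fcgr3 (0.36 and 0.28). The cause of these differences was not tested. No paired analysis was possible because each group was 1 library. Depth limits Fcgr1 and Fcgr4, with 10 to 52 UMIs per library, and the WT untreated monocyte gate set on thinned cells, which held 18 cells and gave no value.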
